A study of Homo sapiens with 6 samples.

Results

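The 37 genes described here carry out DNA replication or drive the passage from G1 into S phase. They were taken by symbol from a table of 20289 genes, in which each of the 37 symbols was found once. RNA was sequenced from 6 libraries labelled as T24, an established human bladder cancer cell line kept in RPMI medium with serum. In 3 libraries the cells are labelled as transfected by lipofection with a pcDNA3.1 plasmid that carries the long non-coding RNA LINC00665, in order to overexpress it. In the other 3 they are labelled as transfected with Vector plasmids, the control. The sources used here give neither the time from transfection to harvest nor any selection of transfected cells. The submitters' design text speaks of 3 independent experiments. LINC00665 itself has 0 rows in the table, so its level was not analysed here.

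Depth ranged from 17289788 expected counts in the library labelled Vector 2 to 22725687 in LINC00665 1. A sample check found 3 libraries of 6 that do not match the labelled cell line, so every group and direction below is given by label. Plasmid and source of the cells cannot be told apart here. Basal urothelial markers summed to 3652 to 4206 CPM (counts relative to the TMM-scaled library size) in libraries labelled LINC00665. In those labelled Vector they summed to 888 to 1317 CPM, with KRT14 at 0. CD44 and EGFR averaged 866 and 262 CPM under the Vector label and 971 and 530 CPM under the LINC00665 label. KRT5, KRT6A, KRT17, TP63 and DSG3 averaged 0.38, 0.20, 0.20, 0.09 and 0.03 CPM under the Vector label. Under the LINC00665 label these 5 averaged 835, 516, 929, 110 and 23.5 CPM. Luminal urothelial markers summed to 3442 to 4199 CPM in libraries labelled LINC00665 and 1022 to 3183 CPM in those labelled Vector. KRT20 was at 0 in both groups and UPK3A at 0 in the Vector group. KRT18 and KRT8 averaged 1001 and 837 CPM under the Vector label and 1893 and 1622 CPM under the LINC00665 label. GATA3, PPARG, FOXA1, UPK1B and UPK2 averaged 0.05, 1.84, 1.81, 0.12 and 0.07 CPM under the Vector label. Under the LINC00665 label they averaged 84.9, 130, 20.2, 15.3 and 3.40 CPM. UPK1A went the other way, at 0.58 CPM under the Vector label and 0.04 CPM under the LINC00665 label. Renal tubule markers summed to 32.5 to 34.8 CPM in libraries labelled LINC00665 and 381 to 544 CPM in those labelled Vector, with 5 of the 8 markers lower and 1, LHX1, higher under the LINC00665 label. Fibroblast markers reached 243 to 271 CPM under the LINC00665 label against 1.76 to 2.84 CPM under the Vector label. In the same order of labels, leukocyte markers summed to 5.58 to 6.83 CPM against 0 to 0.72 CPM. Endothelial markers summed to 11.5 to 13.4 CPM against 0.28 to 1.03 CPM in that order. The part of these marker differences in the results below was not tested.

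Before a cell copies its DNA, the origin recognition complex, CDC6 and CDT1 load the ring-shaped MCM2-7 helicase onto origins in G1. At the start of S phase CDC45 and the GINS complex join the ring, DNA unwinds, and polymerases copy both strands behind the sliding clamp PCNA, which the RFC complex places on DNA. Most of these genes are transcribed in late G1 by E2F factors, which the RB protein holds back until cyclin-dependent kinases, among them cyclin E with CDK2, phosphorylate it. In bladder cancer this circuit is often altered, and the level of the replication genes is widely read as a sign of cycling cells.

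The replication genes had few called differences between the labels. Of the 37 members, all tested, 8 were higher under the LINC00665 label, against a background of 34.2% of the 13552 genes tested, and 4 were lower, against 29.3% (edgeR's quasi-likelihood test, Benjamini-Hochberg adjusted p under 0.05). The other 25 did not pass the test, and the 12 called compare with 63.5% of all genes tested called in either direction. A log2 fold change of at least 1 in size was found for 7 members, against 42.9% of all genes tested. E2F1, CCNE1, CDC6, CDT1, MCM7, RFC2, RFC5 and RRM1 were the 8 higher genes, and RFC3, E2F2, LIG1 and POLA1 the 4 lower ones. The members' median log2 fold change was 0.07 and the median of all genes tested 0.03. Total-count scaling moved the members' median to -0.091 and that of all genes to -0.13, with 7 members higher and 8 lower; MCM5, CDC45, POLD1 and RPA2 were then lower too, and CDT1 did not pass. In bulk RNA, fewer cycling cells and less of these RNAs per cell cannot be told apart.

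**Figure D1:**
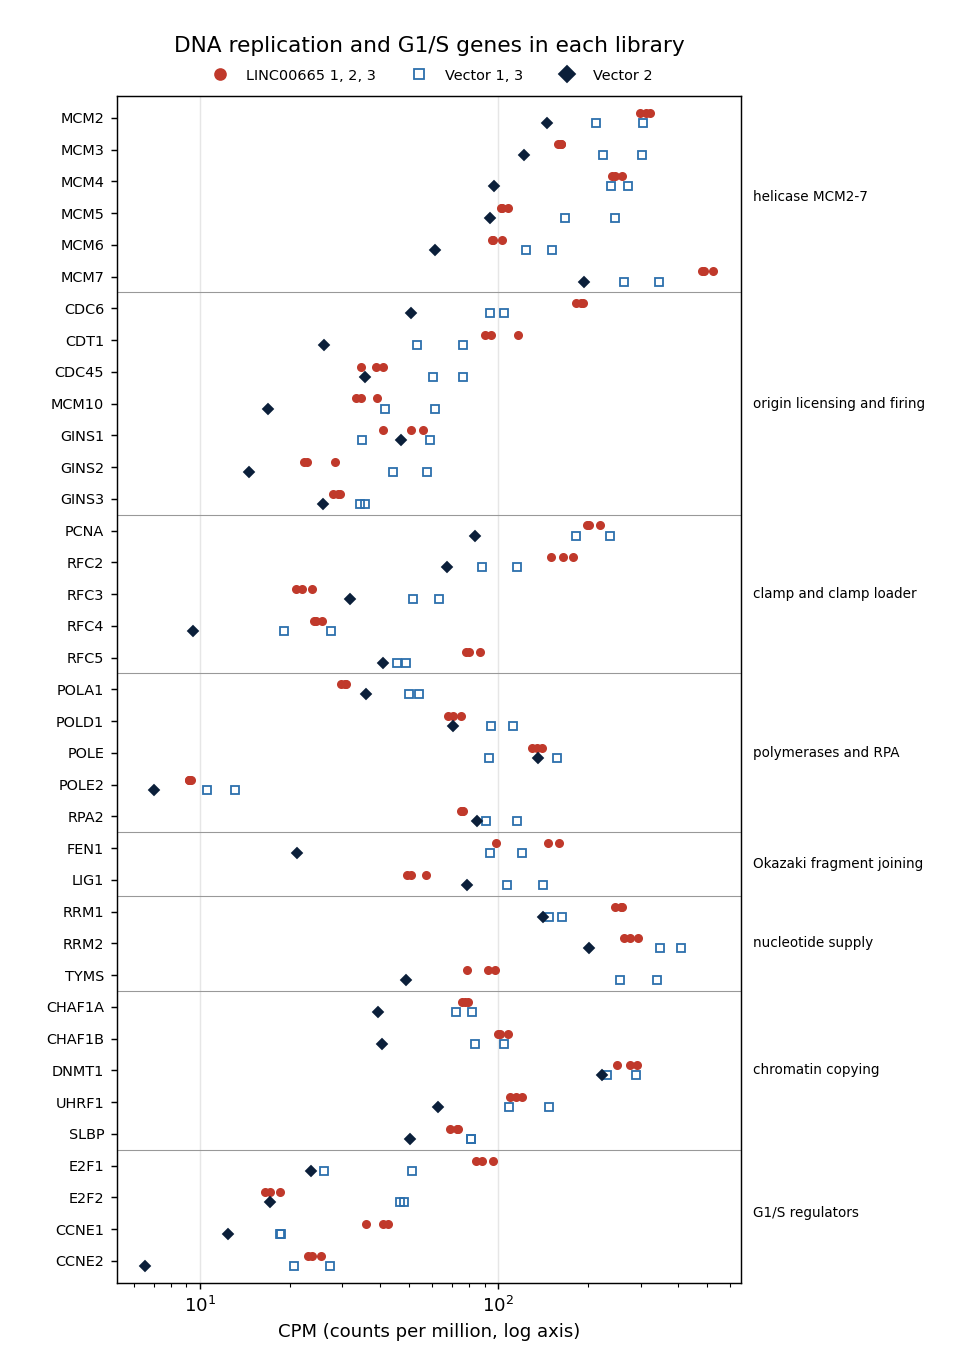
CPM of the 37 members on a log axis, by role, with 1 point per library: circles are the libraries labelled LINC00665, open squares Vector 1 and Vector 3, diamonds Vector 2. The circles lie close together, whereas the diamond is the leftmost Vector point for 35 of the 37 genes.

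The spread within a label was uneven. The coefficient of variation (SD over mean) of the members had a median of 5.13% in libraries labelled LINC00665 and 34.3% in those labelled Vector, against 10.8% and 20.9% for all genes tested. It exceeded 20% for 1 member under the LINC00665 label, the flap nuclease FEN1, and for 32 members under the Vector label. The library labelled Vector 2 was the lowest Vector library for 35 of the 37 members and for 34% of all genes tested; GINS1 and POLE were the exceptions, lowest in Vector 3.

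The summed level of the members was 4251, 4403 and 4312 CPM in LINC00665 1, 2 and 3, and 4185, 2466 and 4833 CPM in Vector 1, 2 and 3. Vector 1 and Vector 3 thus lay on either side of the LINC00665 libraries, and Vector 2 alone lay far below. The median member was 0.90 lower on the log2 scale in Vector 2 than the mean of Vector 1 and Vector 3, where the median of all genes tested was 0.02 higher. The thymidylate synthase gene TYMS differed most, by -2.57, followed by FEN1 at -2.30, CCNE2 at -1.78 and GINS2 at -1.76. At the other end POLE was 0.17 and GINS1 0.05 higher in Vector 2, and the members lower by the least were RRM1 at -0.13, RFC5 and DNMT1 at -0.21 each and RPA2 at -0.27.

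Related lists gave smaller median differences for Vector 2, without a test between lists. Its median difference from the other Vector libraries was -0.65 over 44 related origin and fork factors, -0.38 over 18 further nucleotide supply genes, -0.20 over 30 E2F, RB and G1 regulators and -0.25 over 30 mitotic genes. Vector 2 was the lowest Vector library for 81.8%, 77.8%, 50% and 73.3% of these lists in turn, so this trait was not particular to the members. Vector 2 had the fewest counts of the 6 libraries, the lowest luminal marker sum (1022 CPM) and the highest renal tubule marker sum (544 CPM) of its group, and their part in its low replication genes was not tested.

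**Figure D2:**
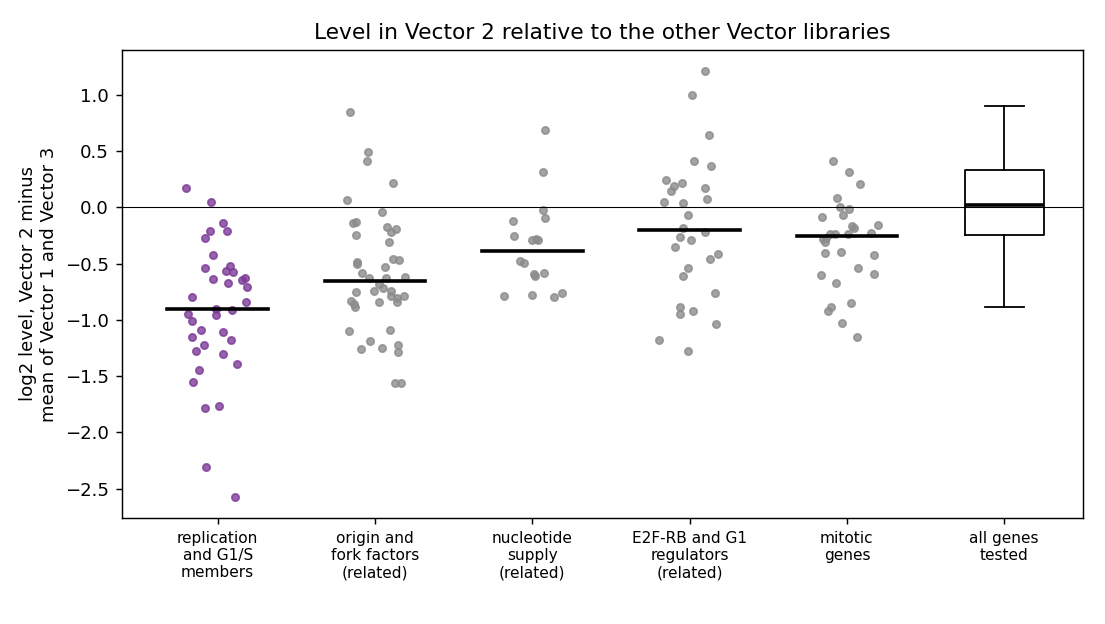
Difference in log2 level between Vector 2 and the mean of Vector 1 and Vector 3 (vertical axis) for each member and for the genes of 4 related lists, with medians as bars; the box for all genes tested spans the quartiles and its whiskers the central 90%. The members' median is -0.90 and that of all genes tested 0.02.

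Without Vector 2, the 12 called members were called in the same direction and 10 more were lower under the LINC00665 label. This gave 8 higher members, against a background of 36.5%, and 14 lower, against 30.6% (67.1% in either direction). The 10 were MCM3, MCM5, MCM6, CDC45, MCM10, GINS2, POLD1, RPA2, RRM2 and TYMS. Vector 2 was the lowest Vector library for each of these 10, as for 35 of the 37 members. The log2 fold changes of these 10 were already negative in all 6 libraries, from -0.16 for MCM10 to -1.26 for TYMS. Leaving out Vector 2 raises the Vector mean of these 10. The larger size of their differences follows from that choice, and their calls are no separate evidence. TYMS had the largest difference among them, at -1.74 (SE 0.17, edgeR adjusted p = 6e-05), and over all the alternatives its adjusted p ranged from 6e-05 to 0.238. Leaving out LINC00665 1, LINC00665 3 or Vector 1 instead left 2 lower members. Leaving out Vector 3 shifted the counts the other way, to 11 higher and 3 lower members, where 66.2% of all genes tested were called in either direction. In all 6 libraries the groups did not overlap for 8 members that were higher, against 37.9% of all genes tested, and for 4 that were lower, against 32.3% (70.2% in either direction). The 4 were RFC3, LIG1, POLA1 and RPA2, since E2F2 overlapped.

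**Figure D3:**
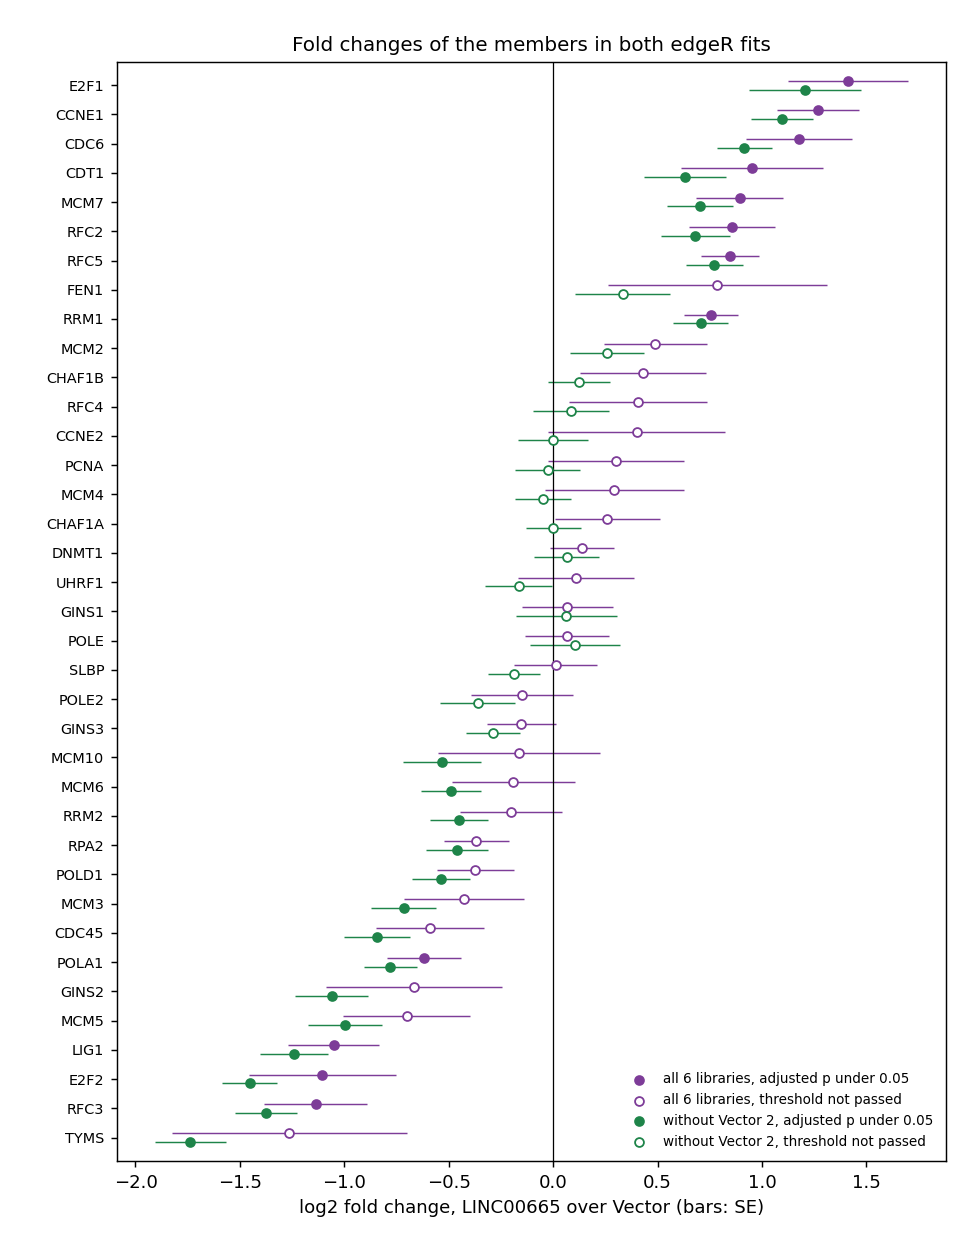
Log2 fold change of each member, LINC00665 over Vector, with its SE, from all 6 libraries and without Vector 2; filled points passed an adjusted p of 0.05. Without Vector 2 most points move left and most bars shorten, and TYMS lies at -1.74.

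Among the G1/S regulators, the activator E2F1 and cyclin E1 were higher and the activator E2F2 lower under the LINC00665 label. E2F1 (chromosome 20, 33675683 to 33686404 of GRCh38) stood at 87.9, 84.2 and 96.3 CPM in LINC00665 1, 2 and 3, and at 51.2, 23.5 and 26.1 CPM in Vector 1, 2 and 3. The groups did not overlap, and within the Vector label library 1 was the highest. The log2 fold change was 1.41 (SE 0.29, edgeR adjusted p = 0.0029), the largest increase among the members. CCNE1, which encodes cyclin E1, a partner of CDK2 (chromosome 19, 29811898 to 29824308), had 36.1, 42.7 and 41.1 CPM under the LINC00665 label and 18.7, 12.4 and 18.5 CPM under the Vector label. Its groups were apart as well, and the log2 fold change was 1.27 (SE 0.20, edgeR adjusted p = 0.00062).

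E2F2 (chromosome 1, 23506430 to 23531220) had 17.2, 16.5 and 18.6 CPM in libraries labelled LINC00665, and 46.9, 17.2 and 48.4 CPM in Vector 1, 2 and 3. Vector 2 fell among the LINC00665 libraries, and the other Vector libraries lay well above them. The log2 fold change was -1.10 (SE 0.35, edgeR adjusted p = 0.024), -1.45 (SE 0.13) without Vector 2, and the adjusted p over the alternatives ran from 4.2e-05 to 0.087; the call was lost on leaving out any library but Vector 2. Cyclin E2, CCNE2, was at 24.03 ± 1.25 CPM under the LINC00665 label and 18.2 ± 10.6 CPM under the Vector label (SD, n = 3 each). Its expected counts were not whole, and the gene overlaps INTS8 and NDUFAF6 on the other strand. Whether reads were shared with them was not tested. Per gene length, E2F1 exceeded E2F2 by 9.88, 9.84 and 10.0 times in FPKM in LINC00665 1, 2 and 3 and by 2.11, 2.64 and 1.04 times in Vector 1, 2 and 3. The ratio, a pair chosen after its values were seen, is taken within each library, and it did not overlap between the labels.

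Some of the members hold an E2F motif at their promoter. The members were not picked by motif, but most genes of this kind are transcribed by E2F factors, as said above. A larger share with the motif than among all windows is therefore tied to the choice of the list and is no separate evidence. RefSeq promoter windows of GRCh38.p14, from 250 bases before to 50 after a gene's start, were found for 33 members and not for MCM4, MCM5, RPA2 and CCNE2. They were searched on both strands for the E2F motif in the spellings TTTCCCGC, TTTCGCGC, TTTGCCGC and TTTGGCGC; matches may overlap each other. The motif was in 21 of 42 windows of the members (50%) and in 3.31% of all 35116 windows. By gene, counting any listed start, 4 of 8 higher members held it (E2F1, CDT1, MCM7 and CDC6), as did 4 of 4 lower ones and 12 of 21 members that did not pass the test. The CCAAT box, CCAAT on either strand, was in 54.8% of the members' windows and 34.6% of all windows. A match is a description of letters and shows no binding.

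The following stretches, the 200 bases just before the start, are shown because E2F motifs stand in promoters of members that were higher and of members that were lower. All are given 5′ to 3′ on the gene's strand, with matches of the E2F motif in capitals. E2F1 (chr20:33686386-33686585, minus strand), CDT1 (chr16:88803589-88803788, plus strand) and MCM7 (chr7:100101398-100101597, minus strand, the upstream of 3 listed starts) were higher under the LINC00665 label.
E2F1: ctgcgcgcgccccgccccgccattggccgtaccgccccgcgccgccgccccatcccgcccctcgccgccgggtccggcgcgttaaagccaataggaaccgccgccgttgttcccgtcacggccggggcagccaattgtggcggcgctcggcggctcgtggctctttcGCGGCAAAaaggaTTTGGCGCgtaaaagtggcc
CDT1: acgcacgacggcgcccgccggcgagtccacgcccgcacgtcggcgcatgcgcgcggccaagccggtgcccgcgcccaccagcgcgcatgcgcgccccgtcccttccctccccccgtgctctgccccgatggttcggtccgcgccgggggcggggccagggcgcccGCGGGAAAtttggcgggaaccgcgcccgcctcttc
MCM7: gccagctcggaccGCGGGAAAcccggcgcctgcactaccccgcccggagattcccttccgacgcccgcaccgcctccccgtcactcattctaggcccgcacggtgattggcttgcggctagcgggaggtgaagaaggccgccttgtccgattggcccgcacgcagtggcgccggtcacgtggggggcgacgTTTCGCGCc
E2F2 (chr1:23531234-23531433, minus strand), RFC3 (chr13:33817949-33818148, plus strand) and LIG1 (chr19:48170345-48170544, minus strand) were lower under that label.
E2F2: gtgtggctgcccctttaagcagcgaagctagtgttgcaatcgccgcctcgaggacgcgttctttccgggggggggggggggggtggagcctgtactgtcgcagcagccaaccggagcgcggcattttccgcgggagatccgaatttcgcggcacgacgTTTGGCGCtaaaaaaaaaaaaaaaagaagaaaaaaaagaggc
RFC3: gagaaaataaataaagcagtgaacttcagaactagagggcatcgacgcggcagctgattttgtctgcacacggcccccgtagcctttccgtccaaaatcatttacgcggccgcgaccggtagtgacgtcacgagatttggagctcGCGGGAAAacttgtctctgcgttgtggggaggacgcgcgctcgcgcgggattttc
LIG1: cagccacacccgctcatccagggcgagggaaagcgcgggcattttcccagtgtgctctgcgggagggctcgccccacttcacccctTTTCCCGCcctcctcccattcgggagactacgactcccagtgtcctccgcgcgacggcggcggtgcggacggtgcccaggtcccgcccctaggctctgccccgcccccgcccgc
The matches begin 33 and 20 bases before the start in E2F1, 35 in CDT1, 187 and 9 in MCM7, 42 in E2F2, 55 in RFC3 and 114 in LIG1.

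Around these regulators stands the wider list of E2F, RB and G1 genes. Of its 30 genes, all tested, 13 were higher and 5 lower under the LINC00665 label (43.3% and 16.7%, against 34.2% and 29.3% of all genes tested), with a median log2 fold change of 0.38. Those named by the smallest p were the kinase inhibitors CDKN1C and CDKN2A and the activator E2F3 among the higher genes, and RB1, CDKN2C and RBL2 among the lower. RB1, the retinoblastoma tumour suppressor that restrains E2F, was at 8.19, 5.46 and 7.86 CPM in libraries labelled LINC00665 and at 96.5, 87.0 and 106 CPM in those labelled Vector. Its log2 fold change was -3.75 (SE 0.20, edgeR adjusted p = 1.91e-06), and Vector 2 was close to the other Vector libraries. CDKN2A, an INK4 inhibitor locus, was at 313 ± 19.4 CPM under the LINC00665 label and 36.4 ± 5.66 CPM under the Vector label (SD, n = 3 each). CDKN1C stood at 42.4 ± 12.1 CPM and 0.181 ± 0.114 CPM in the same order of labels. RBL2, an RB relative, was at 45.9 ± 9.11 CPM under the LINC00665 label and 83.2 ± 16.4 CPM under the Vector label, and CDKN2C, another INK4 inhibitor, at 12.4 ± 2.11 CPM under the LINC00665 label and 30.0 ± 10.6 CPM under the Vector label.

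The E2F family, given here as a whole after its values were seen, did not move in 1 direction. E2F3 was at 472 ± 9.11 CPM under the LINC00665 label and 77.7 ± 11.5 CPM under the Vector label, a log2 fold change of 2.60 (SE 0.16). The late repressors E2F7 and E2F8 were higher as well, at 229 and 31.7 CPM under the LINC00665 label and 52.4 and 13.3 CPM under the Vector label. E2F4, a repressor of resting cells, was lower at 38.1 CPM under the LINC00665 label and 58.7 CPM under the Vector label, and E2F5 and E2F6 did not pass the test. E2F1, E2F3, E2F7 and E2F8 thus stood higher and E2F2 and E2F4 lower in libraries labelled LINC00665.

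**Figure D4:**
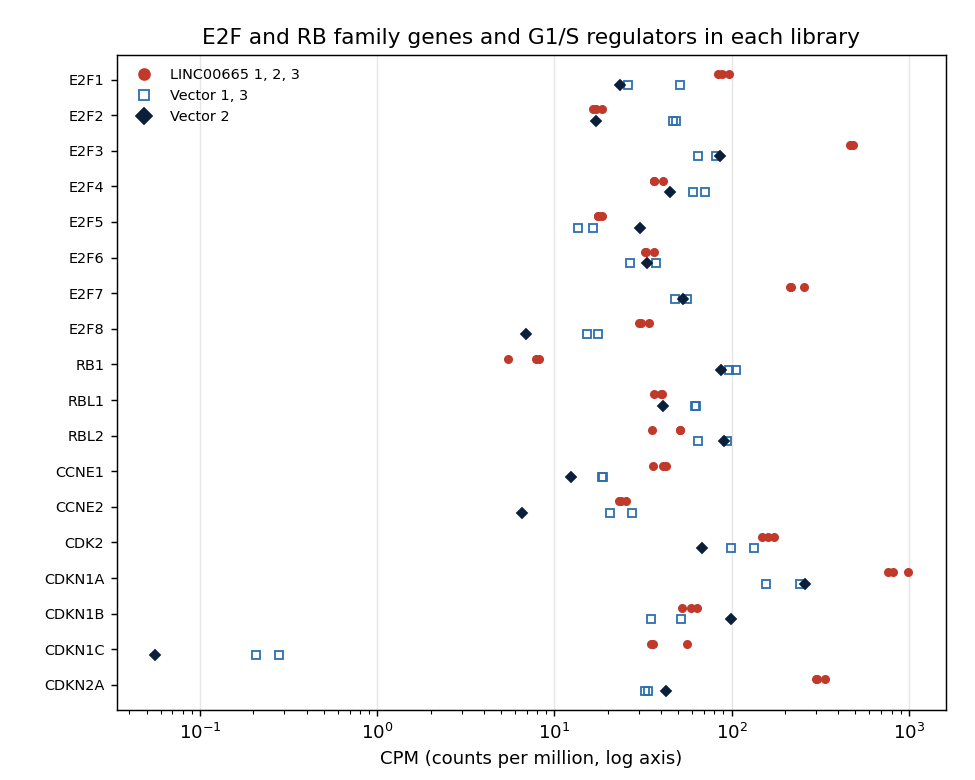
CPM per library on a log axis for E2F and RB family genes and other G1/S regulators; symbols as in the plot of the members by library. RB1 lies at 5.46 to 8.19 CPM under the LINC00665 label and 87.0 to 106 CPM under the Vector label, and E2F3 at 464 to 482 CPM and 64.7 to 86.3 CPM in the same order of labels.

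Of the 6 subunits of the MCM2-7 helicase, only MCM7 passed the test in all 6 libraries, and it was higher under the LINC00665 label. MCM7 (chromosome 7, 100092728 to 100101940) had 488, 523 and 480 CPM in LINC00665 1, 2 and 3, and 264, 194 and 345 CPM in Vector 1, 2 and 3. All LINC00665 libraries lay above all Vector libraries, and the log2 fold change was 0.89 (SE 0.21, edgeR adjusted p = 0.0056). The gene holds MIR106B, MIR93 and MIR25 on its strand and overlaps AP4M1 on the other, and its expected counts were not all whole. MCM5 had 103, 108 and 102 CPM in libraries labelled LINC00665, and 168, 94.1 and 247 CPM in Vector 1, 2 and 3. Vector 2 lay just below the LINC00665 libraries, and MCM5 did not pass with it (log2 fold change -0.70, edgeR adjusted p = 0.073) but passed without it (-0.996, SE 0.18, edgeR adjusted p = 0.0015), with total-count scaling and on FPKM. MCM3 was likewise at 161 ± 1.77 CPM under the LINC00665 label and 216 ± 90.5 CPM under the Vector label (SD, n = 3 each), MCM6 at 98.2 ± 4.09 CPM under the LINC00665 label and 112 ± 46.1 CPM under the Vector label. MCM2 and MCM4 passed in neither fit, with log2 fold changes of 0.49 and 0.29, and of 0.26 and -0.047 without Vector 2.

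The proportions among the subunits were then taken within each library. MCM7 made up 40.5, 41.4 and 38.9% of the summed FPKM of MCM2-7 in LINC00665 1, 2 and 3, and 24.7, 31.2 and 25.8% in Vector 1, 2 and 3. MCM5 made up 8.42, 8.59 and 8.34% in libraries labelled LINC00665 and 16.9, 17.5 and 18.0% in those labelled Vector. The other subunits with groups apart were MCM2, with a mean of 18.4% under the LINC00665 label against 16%, MCM3, with 11.8% against 17.5%, and MCM6, with 5.21% against 7.20% under the Vector label. For MCM4, with 15.8% against 14.6%, the groups overlapped. By mean FPKM the order was MCM7, MCM2, MCM4, MCM3, MCM5, MCM6 under the LINC00665 label and MCM7, MCM3, MCM5, MCM2, MCM4, MCM6 under the Vector label. In the Vector order MCM3, MCM5, MCM2 and MCM4 differed by less than their SDs, at 76.8, 75.5, 68.6 and 64.5 FPKM with SDs of 32.1, 28.6, 25.3 and 30.0. These SDs hold the low level of Vector 2, which the subunits share. Within Vector 1, 2 and 3, MCM5 was above MCM2 each time, at 77.51, 45.96 and 102.96 FPKM against 66.33, 44.55 and 94.95 FPKM. Every other pair among these genes changed its order between Vector libraries.

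Both licensing factors among the members, CDC6 and CDT1, were higher under the LINC00665 label. The origin recognition complex, which loads the helicase with them, did not share this direction. Its genes ORC2, ORC3 and ORC4 were lower, with log2 fold changes of -0.52, -1.49 and -0.63, and ORC1, ORC5 and ORC6 did not pass the test. CDC6, an ATPase (chromosome 17, 40287633 to 40304657), had 182, 190 and 193 CPM in LINC00665 1, 2 and 3, and 105, 50.9 and 93.9 CPM in Vector 1, 2 and 3. Even the highest Vector library was well below the lowest LINC00665 library, and the log2 fold change was 1.18 (SE 0.25, edgeR adjusted p = 0.0038). CDT1, its partner (chromosome 16, 88803213 to 88809258), had 90.4, 116 and 94.2 CPM under the LINC00665 label and 53.4, 26.0 and 75.9 CPM under the Vector label. The groups were apart (log2 fold change 0.95, SE 0.34, edgeR adjusted p = 0.037), but the call did not hold with total-count scaling, on FPKM, or without LINC00665 1, LINC00665 2, LINC00665 3 or Vector 1 (adjusted p over the alternatives 0.0039 to 0.137).

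The factors that turn the loaded ring into a moving helicase did not follow CDC6 and CDT1. CDC45 was at 38.2 ± 3.15 CPM under the LINC00665 label and 57.5 ± 20.5 CPM under the Vector label (SD, n = 3 each; log2 fold change -0.59, edgeR adjusted p = 0.077). GINS2 had 22.4, 28.3 and 22.9 CPM in libraries labelled LINC00665, and 44.5, 14.5 and 57.4 CPM in Vector 1, 2 and 3. The Vector libraries thus lay on both sides of the others, and GINS2 was lower only without Vector 2, at -1.06 (SE 0.17, edgeR adjusted p = 0.00097). MCM10, which helps the helicase start, gave -0.16 in all libraries and -0.53 without Vector 2. GINS1 and GINS3 passed in neither fit, with log2 fold changes of 0.07 and -0.15.

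**Figure D5:**
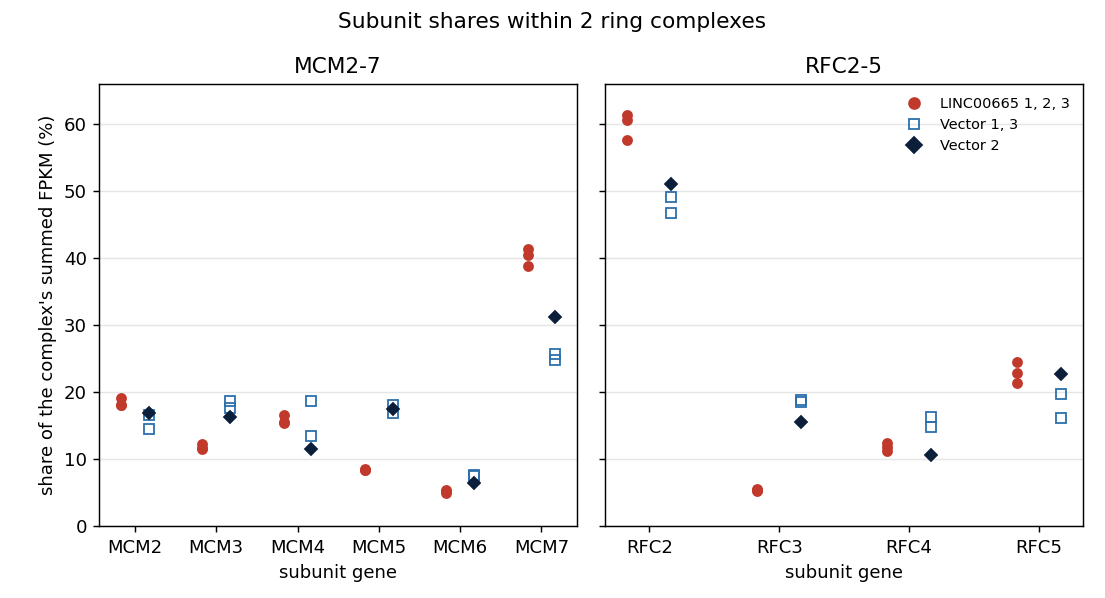
Share of each subunit gene in the summed FPKM of MCM2-7 (left) and of RFC2-5 (right), in percent, with 1 point per library; symbols as in the plot of the members by library. MCM7 and RFC2 take larger shares and MCM5 and RFC3 smaller ones in libraries labelled LINC00665.

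The clamp loader genes split. RFC2 (chromosome 7, 74231499 to 74254458) had 150, 178 and 164 CPM in LINC00665 1, 2 and 3, and 88.3, 67.5 and 115 CPM in Vector 1, 2 and 3 (log2 fold change 0.86, SE 0.21, edgeR adjusted p = 0.0065). RFC5 (chromosome 12, 118013588 to 118033130), which overlaps WSB2 on the other strand, had 79.4, 86.6 and 78.1 CPM under the LINC00665 label and 49.1, 40.9 and 45.8 CPM under the Vector label (log2 fold change 0.84, SE 0.14, edgeR adjusted p = 0.00089). Both genes were higher with no overlap of the groups, and Vector 2 was near the others for RFC5. RFC3 (chromosome 13, 33818049 to 33966558) went the other way, with 20.9, 23.7 and 22.0 CPM in libraries labelled LINC00665 and 51.7, 31.7 and 63.1 CPM in those labelled Vector. Its log2 fold change was -1.14 (SE 0.25, edgeR adjusted p = 0.0038), and its share of the summed FPKM of RFC2-5 was 5.47, 5.23 and 5.50% under the LINC00665 label against 18.8, 15.5 and 18.5% under the Vector label. RFC2 took 59.8 ± 1.98% of that sum in libraries labelled LINC00665 and 49.0 ± 2.16% in those labelled Vector (SD, n = 3 each), with no overlap, whereas the shares of RFC4 and RFC5 overlapped. The RFC shares too are parts of the same sum and not independent of each other. The clamp PCNA itself had 198, 219 and 201 CPM under the LINC00665 label, and 182, 83.5 and 237 CPM in Vector 1, 2 and 3. Its log2 fold change was 0.30 (edgeR adjusted p = 0.445) and -0.026 without Vector 2 (SE 0.16), and RFC4 did not pass in either fit.

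Of the 5 members that are polymerase or single-strand binding genes, POLA1 was lower and none was higher. POLA1, the catalytic subunit of the polymerase that starts each new strand with primase (chromosome X, 24693919 to 24996986), had 29.7, 30.6 and 30.9 CPM in LINC00665 1, 2 and 3, and 54.1, 36.0 and 49.98 CPM in Vector 1, 2 and 3. The groups did not overlap and the log2 fold change was -0.62 (SE 0.18, edgeR adjusted p = 0.015), though the call was lost without LINC00665 1, LINC00665 3 or Vector 1 (adjusted p over the alternatives 0.001 to 0.061). RPA2, a subunit of the protein that coats single-stranded DNA, was at 75.4 ± 0.687 CPM under the LINC00665 label and 97.3 ± 16.4 CPM under the Vector label (SD, n = 3 each), with groups apart but a threshold not passed (-0.37, edgeR adjusted p = 0.068). POLD1, the lagging-strand polymerase, was at 71.2 ± 3.66 CPM under the LINC00665 label and 92.2 ± 20.8 CPM under the Vector label, and both genes were lower without Vector 2 and with total-count scaling. POLE, the leading-strand polymerase, and its subunit POLE2 passed in neither fit, at 135 ± 5.08 and 129 ± 32.9 CPM and at 9.23 ± 0.0593 and 10.2 ± 3.06 CPM in the same order of labels.

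The genes that finish Okazaki fragments differed from each other. LIG1, the ligase that seals them (chromosome 19, 48115445 to 48170603), had 49.4, 57.3 and 51.0 CPM in libraries labelled LINC00665 and 106, 78.5 and 142 CPM in Vector 1, 2 and 3. It was lower with no overlap, at -1.05 (SE 0.22, edgeR adjusted p = 0.0031). FEN1, the nuclease that trims the flap before sealing, had 147, 160 and 98.04 CPM in LINC00665 1, 2 and 3, and 93.8, 21.0 and 120 CPM in Vector 1, 2 and 3. No other member varied as much among the LINC00665 libraries, and its groups overlapped (log2 fold change 0.79, SE 0.53, edgeR adjusted p = 0.22). FEN1 overlaps TMEM258 and FADS2 in the annotation. Among other members, MCM2 overlaps TPRA1, RFC4 overlaps EIF4A2, CHAF1B overlaps MORC3 and DNMT1 overlaps S1PR2. POLD1 and RRM2 overlap the coding genes AC020909.1 and AC007240.1 on their own strand. Whether reads were shared was not tested for any of these.

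Of the nucleotide genes, RRM1 and RRM2 encode the large and the small subunit of ribonucleotide reductase, and only RRM1 passed in all libraries. RRM1 (chromosome 11, 4094707 to 4138876, with the antisense gene RRM1-AS1) had 245, 260 and 258 CPM in LINC00665 1, 2 and 3, and 148, 141 and 163 CPM in Vector 1, 2 and 3. Its Vector libraries were close together, and the log2 fold change was 0.76 (SE 0.13, edgeR adjusted p = 0.0011). RRM2 had 295, 264 and 275 CPM under the LINC00665 label and 409, 201 and 347 CPM in Vector 1, 2 and 3 (-0.20, edgeR adjusted p = 0.496), and was lower without Vector 2 (-0.45, SE 0.14). In FPKM, RRM1 over RRM2 was 0.853, 1.01 and 0.966 in libraries labelled LINC00665 and 0.378, 0.732 and 0.486 in those labelled Vector, a ratio also chosen after its values were seen, with no overlap. Of the 5 pairs computed, CCNE1 over CCNE2, CHAF1A over CHAF1B and POLE over POLE2 overlapped between the labels. TYMS, which makes thymidylate, had 92.05, 97.4 and 78.6 CPM under the LINC00665 label and 255, 49.1 and 339 CPM in Vector 1, 2 and 3. Its mean was 52.7 FPKM under the LINC00665 label, rank 11 among the members. Under the Vector label it had the highest mean, 142 FPKM with an SD of 98.8, but this lies within the spread of PCNA, at 139 FPKM with an SD of 65.2, and in Vector 2 TYMS was at 31.7 FPKM, below MCM7, PCNA and RRM2. Its expected counts were not whole, and it overlaps ENOSF1 on the other strand, so reads of the pair cannot be told apart with certainty.

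None of the 5 genes that copy chromatin passed the test in either fit. The chromatin assembly factor subunits CHAF1A and CHAF1B were at 77.1 ± 1.74 and 103 ± 4.03 CPM under the LINC00665 label and 64.3 ± 22.1 and 76.3 ± 32.5 CPM under the Vector label (SD, n = 3 each). DNMT1, which copies DNA methylation, had 276, 249 and 292 CPM in libraries labelled LINC00665 and 231, 223 and 289 CPM in those labelled Vector. Its partner UHRF1 was at 115 ± 5.03 and 106 ± 42.6 CPM, and SLBP, which binds histone mRNA, at 71.6 ± 2.20 and 71.0 ± 17.7 CPM, in the same order of labels. The log2 fold changes ran from 0.01 for SLBP to 0.43 for CHAF1B, with SEs from 0.15 for DNMT1 to 0.30 for CHAF1B.

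The other genes of these processes, in 3 lists, were all tested. Among 44 origin and fork factors, 4 were higher and 10 lower (9.09% and 22.7%, against 34.2% and 29.3% of all genes tested), with a median log2 fold change of -0.07. Without Vector 2 these were 3 and 17, where the background was 36.5% and 30.6%. POLA2, the partner subunit of POLA1, was higher, at 63.5 ± 2.93 CPM under the LINC00665 label and 28.9 ± 13.2 CPM under the Vector label, while POLA1 was lower. POLD4, a small subunit of polymerase delta, and TICRR, an origin firing factor, were also higher, TICRR only with Vector 2. RPA1, the large subunit beside RPA2, was lower, at 109 ± 3.60 CPM under the LINC00665 label and 234 ± 36.4 CPM under the Vector label (log2 fold change -1.11, SE 0.15, edgeR adjusted p = 0.00035). ORC3, of the origin recognition complex, was at 9.94 ± 2.02 CPM under the LINC00665 label and 27.9 ± 5.38 CPM under the Vector label, and DSCC1, of an alternative clamp loader, at 6.95 ± 1.18 CPM under the LINC00665 label and 23.9 ± 11.4 CPM under the Vector label.

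Of 18 other nucleotide supply genes 2 were higher and 8 lower (11.1% and 44.4%, against 34.2% and 29.3% of all genes tested; median -0.46), and 1 and 10 without Vector 2. SHMT2, the mitochondrial serine hydroxymethyltransferase, was higher at 278 ± 13.3 CPM under the LINC00665 label and 138 ± 53.4 CPM under the Vector label, and its cytosolic counterpart SHMT1 lower at 41.3 ± 2.59 CPM under the LINC00665 label and 87.9 ± 5.85 CPM under the Vector label. GMPS, for guanine nucleotides, was higher only with Vector 2 included. RRM2B, the alternative small subunit of ribonucleotide reductase, was lower at 8.63 ± 1.60 CPM under the LINC00665 label and 34.6 ± 7.85 CPM under the Vector label, and DTYMK, the kinase that follows TYMS, at 43.2 ± 5.79 CPM under the LINC00665 label and 97.4 ± 18.1 CPM under the Vector label. Among 30 mitotic genes 1 was higher and 14 were lower (3.33% and 46.7%, against 34.2% and 29.3% of all genes tested; median -0.48), and 1 and 18 without Vector 2, where the background was 36.5% and 30.6%. The higher gene was the phosphatase CDC25B. The kinesin KIF11 was at 41.6 ± 2.03 CPM under the LINC00665 label and 101 ± 12.9 CPM under the Vector label, the checkpoint kinase BUB1 at 69.6 ± 1.12 CPM under the LINC00665 label and 132 ± 16.1 CPM under the Vector label, and the kinesin KIF23 at 53.3 ± 0.654 CPM under the LINC00665 label and 99.5 ± 12.8 CPM under the Vector label. No test compared these lists with the 37 members.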

How the data were processed

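RNA of 6 libraries (3 labelled LINC00665, 3 labelled Vector) was extracted with TRIzol and prepared with a TruSeq kit, per the labels' protocols. HISAT2 2.0.4 and hg38 are named in the submitters' processing notes with no role; the sources used here name no counter, annotation or strand setting. The authors deposited expected counts per gene, not normalised, and FPKM, a value per length and depth, both named so per the file headers. Members and lists were chosen with earlier results of these data known.

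Expected counts were rounded, filtered with filterByExpr, scaled by TMM and tested with edgeR 4.0.16 in R 4.3.3 (glmQLFit, glmQLFTest, no covariate), with Benjamini-Hochberg adjustment over 13552 genes and a threshold of 0.05. The test was first checked on simulated data. That check gave each gene the same spread in both labels and changed few genes, so it does not cover the unequal spread given below. CPM uses the TMM-scaled library sizes, and the SE was computed from the fold change divided by the square root of F. Depth was 17289788 to 22725687 expected counts, and the spread among 3 libraries, not counting, limits precision; edgeR's biological coefficient of variation was 12.9% among LINC00665 and 28.6% among Vector libraries. Library pairs of a label differed by more than sampling noise (chi-square per degree of freedom 10.2 to 120).

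All 37 members are reported; of the related lists, up to 3 genes per direction with the smallest p are named, and other genes were chosen after their values were seen. Alternatives were RLE and total-count scaling, other filters, DESeq2 1.42.0, limma-trend 3.58.1 on log2(FPKM + 1) and log2(FPKM + 0.1) with a mean of at least 1 FPKM, a replicate block, leaving out each library, and, added after the data were seen, limma-voom with a weight per group. Positions are from GENCODE (GRCh38, the assembly of hg38) and promoters from RefSeq. Figures were drawn with matplotlib 3.10.9.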

Additional observations from a re-analysis of the deposited data

How the results depend on the processing

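The count of 8 higher members was 7 to 11 over all alternatives. The count of 4 lower members was 8 with total-count scaling, 5 with DESeq2, 6 on FPKM and 2 to 14 on leaving out a library, the 14 without Vector 2. With the replicate block it was 8 higher and 4 lower, and the block ended no call of a member. Libraries of the same number did not deviate together (r = 0.22, -0.16 and -0.20), and not every library correlated best with its own number. With 3 libraries per label, these correlations cannot exclude that libraries of the same number were paired. The members' median was -0.091 to 0.14 with all libraries and -0.047 to 0.26 on leaving out a library. Related replication genes were higher in 19 cases, in 12 and 12 on log2(FPKM + 1) and log2(FPKM + 0.1), and mitotic genes in 1 to 2 cases on leaving out a library. Of 555 values of single members under an alternative, 486 had the direction and call given above, 15 lost the call, 23 gained one and 31 changed sign, the last for members that did not pass in all 6 libraries. With total-count scaling and then both FPKM fits the log2 fold changes of these were -0.091, -0.070 and -0.073 for GINS1, -0.095, -0.031 and -0.032 for POLE, -0.021, -0.019 and -0.019 for DNMT1, -0.056, -0.021 and -0.018 for UHRF1 and -0.15, -0.10 and -0.10 for SLBP. MCM10 was at 0.0018 with the replicate block and 0.0125 in limma-voom. On leaving out a library, values ran from -0.047 to 0.56 for MCM4, -0.49 to 0.084 for MCM6, -0.53 to 0.28 for MCM10, -0.11 to 0.26 for GINS1, -0.026 to 0.63 for PCNA, -0.12 to 0.23 for POLE, -0.36 to 0.066 for POLE2, -0.45 to 0.016 for RRM2, -0.17 to 0.42 for UHRF1, -0.19 to 0.12 for SLBP and -0.0012 to 0.81 for CCNE2. The cause of these changes was not tested. Every member passed the filter on low counts; the spread among 3 libraries, above all in the Vector label, limits what could be called.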
